A study of Mus musculus with 6 samples.

Results

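Immediate early genes are genes that cells transcribe within minutes of a stimulus. The 32 genes described here are a list of such genes that often respond when tissue is taken apart into single cells, and all 32 had a row among the 27998 genes of the deposited table. They were followed in single cells of mouse dorsal root ganglia, the clusters of sensory neuron cell bodies beside the spinal cord. The first group was 2 Ttpa-/- mice on a diet deficient in vitamin E (mice 654, female, and 657, male, both 6 months old). The second group was 2 Ttpa-/- mice on a supplemented diet (mice 670, male, and 671, female, both 6 months old). The third was 2 wild type mice (Ttpa+/+) on a basal diet (mice 698, female, and 699, male, both 5 months old). The product of Ttpa carries alpha-tocopherol, the main form of vitamin E, out of the liver into the blood. Age and basal diet go with the wild type genotype, so genotype, age and basal diet cannot be told apart in any comparison with wild type mice. Diet alone differs by label between the Ttpa-/- groups. All cells came from dissociated tissue and no undissociated ganglion was among the samples, so whether dissociation induced these genes was not tested.

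Many immediate early genes are switched on by transcription factors that already sit on their promoters, such as CREB at the cyclic AMP response element (CRE) and serum response factor at the CArG box, once calcium or growth factor signals reach them through kinases such as ERK. The first products include Fos and Jun proteins, which pair into the AP-1 transcription factor, and zinc finger factors of the Egr and Klf families. Other products close the response again: dual specificity phosphatases (Dusp) switch off MAP kinases, and Zfp36 proteins destroy short-lived messenger RNAs. In sensory neurons, Fos, Jun and Atf3 are widely used as signs of activity or of axon injury.

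Expression was read as counts of unique molecular identifiers (UMIs, 1 per captured RNA molecule), and a level is given as counts per 1000000 UMIs (CPM) of the sum over the cells of a type in a mouse. The 6 libraries held 12538785 to 19383933 UMIs. Of 21685 cells, 20976 remained after filters and removal of likely doublets, and 20393 were neurons by their pan-neuronal genes. Median depth per neuron was lowest in mice 670 and 654 (2562 and 2892 UMIs) and highest in mouse 657 (5003). Column names showed 261 barcodes that occurred in more than 1 mouse. Ttpa had 4 and 5 UMIs in the deficient mice, 1 and 4 in the supplemented mice and 0 in both wild type mice, and since the targeted exons are not stated in the labels, these counts do not check the genotype.

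Neurons were placed in types by marker genes, none of which is in the list of 32. NP1-like neurons (1932 cells) carried Mrgprd and Lpar3 of nonpeptidergic nociceptors, and 526 cells carried the itch receptor gene Mrgpra3 (Mrgpra3+ neurons). NP3-like neurons (1771 cells) carried Sst and Nppb of another itch population. TH-like neurons (3446) carried Th and Fam19a4 of low-threshold C fibres, PEP-like neurons (5911) the neuropeptide genes Tac1 and Calca, and NF-like neurons (2607) Nefh, Pvalb and Ntrk3 of myelinated fibres. Of these 16193 cells, 2015 lay near the limit of the gate, and 4200 neurons met no gate. A further 507 cells had many UMIs of satellite glia markers, above all Apoe and Fabp7. They also held pan-neuronal RNA (median 1.01% of UMIs) and are called marker-high cells here, since glia, neurons with glia attached and undetected doublets cannot be told apart.

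The list supplied 201347 UMIs in neurons, and 77.2% of them came from 8 genes. Jund and Fos, both AP-1 subunits, led. Jund had 648 and 512 CPM in deficient mice, 612 and 542 CPM in supplemented mice, and 508 and 599 CPM in wild type mice. Fos had 318 and 297 CPM in deficient mice, 313 and 401 CPM in supplemented mice, and 362 and 369 CPM in wild type mice. Jund levels overlapped between the groups, while both deficient mice had less Fos than either wild type mouse. Jun, the main partner of Fos, had 172 and 140 CPM in deficient mice, 181 and 163 CPM in supplemented mice, and 161 and 159 CPM in wild type mice. Gadd45g, a growth arrest gene, had 167 and 155 CPM in deficient mice, 173 and 122 CPM in supplemented mice, and 179 and 131 CPM in wild type mice. Junb, a further Jun family member, had 125 and 113 CPM in deficient mice, 132 and 121 CPM in supplemented mice, and 128 and 121 CPM in wild type mice. Of these 5 genes only Jun had both supplemented mice above both wild type mice.

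The other 3 of the 8 most abundant members were Dusp1, Btg1 and Egr1. Dusp1, a phosphatase of MAP kinases, had 91.2 and 102 CPM in deficient mice, 98.4 and 128 CPM in supplemented mice, and 118 and 118 CPM in wild type mice. Btg1, which slows cell division, had 104 and 102 CPM in deficient mice, 103 and 120 CPM in supplemented mice, and 92.8 and 126 CPM in wild type mice. Egr1, a zinc finger factor, had 96.8 and 88.8 CPM in deficient mice, 101 and 105 CPM in supplemented mice, and 100 and 93.0 CPM in wild type mice. Dusp1 was below both wild type mice in both deficient mice, and the ranges of Btg1 overlapped between all groups. Over all 32 genes, 7 averaged over 100 CPM, 15 lay between 10 and 100 CPM, and 10 lay under 10 CPM. Over the 6 mice, Dusp5, Fosb and Ier3 lay between 35.9 and 56.1 CPM, Dusp6, Fosl2, Ier2 and Klf10 between 19.9 and 30.5 CPM, and Klf2 and Klf4 between 4.14 and 10.1 CPM. Egr3, an Egr family member, had 1 UMI in all neurons, and the neuronal activity genes Arc and Npas4 stayed between 0.606 and 2.45 CPM in all mice. The summed level of the list was 2219.7 and 1944.4 CPM in deficient mice, 2208.7 and 2247.0 CPM in supplemented mice, and 2122.9 and 2223.5 CPM in wild type mice.

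Promoter sequence was read for 26 of the 32 members from RefSeq (GRCm38.p6), as the 250 bases before the gene's start. Egr1, Egr3, Ier2, Klf10, Arc and Myc had no entry and were not searched, nor were bases farther from the start of any gene. Searched on both strands, the CRE TGACGTCA was in 2 members (Btg2 and Dusp1), against 1.62% of 27025 promoters of the same length. The CRE half-site TGACG, which also lies inside the full CRE, was in 15 of 26 members, against 17.9% of promoters. A CArG box was in 2 members (Zfp36 and Dusp5), against 1.40%, the TATA motif TATAAA in 7, against 13.0%, and the AP-1 motif TGANTCA in 1 (Zfp36l1), against 6.87%. A match describes the letters only. Stretches of 3 promoters are shown, since Fos, Btg2 and Dusp5 differed most plainly in the neuron types where they were high; capitals mark the motifs named after each gene, and all are written 5′ to 3′ on the strand of the gene. In Btg2 both half-site matches lie inside the CRE.
Fos, chr12:85473790-85473889, plus strand, half-site and TATAAA: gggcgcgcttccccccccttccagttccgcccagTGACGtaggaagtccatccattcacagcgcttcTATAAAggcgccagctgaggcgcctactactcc
Btg2, chr1:134079156-134079405, minus strand, CRE: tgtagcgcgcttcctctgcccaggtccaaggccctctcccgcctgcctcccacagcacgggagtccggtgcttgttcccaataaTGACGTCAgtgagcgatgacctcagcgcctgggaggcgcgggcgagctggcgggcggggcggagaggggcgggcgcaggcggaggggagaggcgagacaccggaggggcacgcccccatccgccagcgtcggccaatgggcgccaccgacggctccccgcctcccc
Dusp5, chr19:53529009-53529108, plus strand, 2 CArG boxes and a half-site on the other strand: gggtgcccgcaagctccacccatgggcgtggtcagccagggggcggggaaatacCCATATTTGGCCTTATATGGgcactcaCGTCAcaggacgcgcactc

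The list differed far more between neuron types than between groups of mice. Each of the 6 neuron types was compared with the mean of the other neuron types, and the marker-high cells with the mean of all 6, with mouse as a block, in edgeR's quasi-likelihood test with Benjamini-Hochberg adjustment over 10994 genes. Of 29 members tested (Egr3, Arc and Npas4 had too few UMIs), 23 were higher and 2 lower in NP3-like neurons, where 28.2% of all genes were called higher and 28.4% lower. PEP-like neurons had 24 members higher and 4 lower (all genes 38.7% and 28.3%). The other small-fibre types had the opposite balance: 3 higher and 19 lower in NP1-like neurons (all genes 35.3% and 31.3%), 2 and 18 in Mrgpra3+ neurons (23.5% and 20.4%), and 4 and 18 in TH-like neurons (35.8% and 30.7%). NF-like neurons were split, with 12 higher and 10 lower (41.6% and 36.9%). The median log2 fold of the members was 1.13 in NP3-like and 1.02 in PEP-like neurons, -0.99 in NP1-like, -0.70 in Mrgpra3+ and -0.48 in TH-like neurons, and 0.08 in NF-like neurons. Medians over all genes lay between -0.03 and 0.07 in these 6 types. Because each fold is against the mean of the other types, a gene high in some types is lower in the rest by construction. Ier5 had no UMI in Mrgpra3+ neurons. Set at the limit that a count of 0 allows (3 counts over the type) its log2 fold there was -0.89, and the median stayed -0.70. The fitted folds of Ier5 in the other types rest on that count of 0 and are not given.

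**Figure D1:**
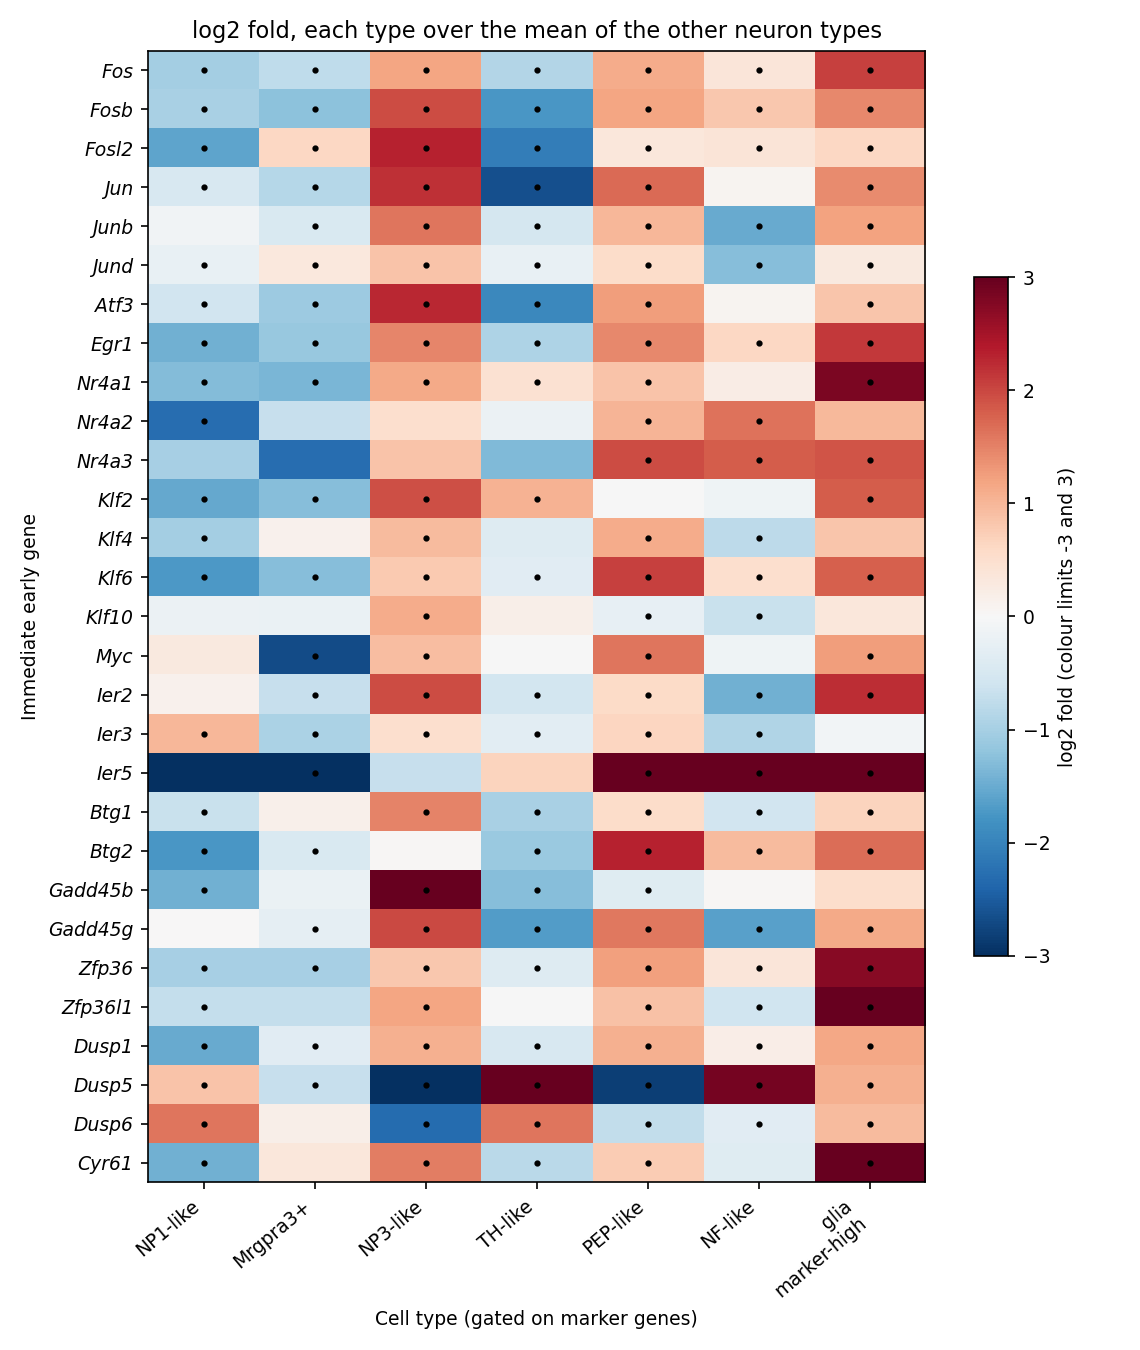
Log2 fold of each tested member (rows) in each cell type (columns) over the mean of the other neuron types, from 6 mice, with colour limits at -3 and 3 and a dot where the edgeR adjusted p was under 0.05. NP3-like, PEP-like and marker-high columns are mostly above 0 (23, 24 and 24 members called higher), NP1-like, Mrgpra3+ and TH-like columns mostly below 0, and the Dusp5 and Dusp6 rows are low in NP3-like and PEP-like but high in TH-like and NP1-like neurons; the Ier5 row rests on a count of 0 in Mrgpra3+ neurons.

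Among the AP-1 genes, Fos (chromosome 12, 85473890 to 85477273, mm10) stood high in the peptidergic and Sst itch types and low in the other small-fibre types. In CPM, written here and below as the lowest, median and highest of the 6 mice, Fos was at 534, 554 and 701 in PEP-like neurons and 497, 587 and 705 in NP3-like neurons. NF-like neurons had 329, 404 and 444 CPM, Mrgpra3+ neurons 158, 172 and 221, TH-like neurons 139, 166 and 227, and NP1-like neurons 111, 146 and 184. PEP-like and NP3-like ranges overlapped, as did Mrgpra3+ with TH-like and TH-like with NP1-like ranges, while the lowest PEP-like or NP3-like mouse lay above the highest NF-like mouse. The log2 fold was 1.12 ± 0.05 (SE) in PEP-like neurons (edgeR adjusted p = 1.25e-33) and 1.19 ± 0.055 in NP3-like neurons (edgeR adjusted p = 1.76e-32), with 6 mice each. Fosb, a close relative of Fos, had 70.8, 97.9 and 146 CPM in NP3-like neurons and 42.3, 57.6 and 70.1 CPM in NF-like neurons, above 14.2, 15.9 and 20.9 CPM in NP1-like and 7.33, 12.0 and 16.9 CPM in TH-like neurons. Fosl2, which encodes Fra-2, was 1 of the 2 members called higher in Mrgpra3+ neurons, with 23.1, 30.8 and 44.0 CPM there, against 5.84, 8.09 and 10.6 in NP1-like and 5.51, 6.26 and 8.87 in TH-like neurons. Its log2 fold in Mrgpra3+ neurons was 0.63 ± 0.16 (edgeR adjusted p = 0.000825), a call lost among cells of 2000 to 4000 UMIs (0.37, adjusted p = 0.786), and it was highest in NP3-like neurons (50.2, 83.4 and 116 CPM).

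Jun (chromosome 4, 95049034 to 95052222, minus strand) spread wider than Fos. Its levels were 344, 470 and 485 CPM in NP3-like and 289, 341 and 402 CPM in PEP-like neurons, against 21.7, 26.2 and 32.0 CPM in TH-like neurons. The ratio of the highest to the lowest type mean was 16.4 for Jun and 4.07 for Fos. In TH-like neurons the log2 fold of Jun was -2.63 ± 0.083 (edgeR adjusted p = 1.49e-43), with NP1-like (66.5, 83.8 and 92.4 CPM) and Mrgpra3+ neurons (60.8, 71.4 and 87.7 CPM) overlapping each other above it. Atf3, a stress and injury factor that pairs with Jun, had 123, 162 and 204 CPM in NP3-like and 76.8, 99.5 and 115 CPM in PEP-like neurons, against 8.75, 13.5 and 22.6 CPM in TH-like neurons. Jund and Junb followed another order, with their lowest level in NF-like neurons. Jund had 257, 297 and 365 CPM in NF-like neurons, below 392, 449 and 486 CPM in NP1-like neurons (log2 fold -1.27 in NF-like neurons), and was slightly higher in Mrgpra3+ neurons at 552, 630 and 723 CPM (log2 fold 0.31, edgeR adjusted p = 5.8e-08). Among cells of 2000 to 4000 UMIs that higher call was lost (0.05, adjusted p = 0.910). Junb had 45.7, 51.3 and 69.8 CPM in NF-like neurons (log2 fold -1.51, edgeR adjusted p = 3.25e-28). Fos and Fosb were called higher in NF-like neurons while Jund and Junb were called lower there. The counted reads were not stated to use strand, so reads of Jun, Junb, Jund and Atf3 cannot be told apart from those of genes that overlap them.

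**Figure D2:**
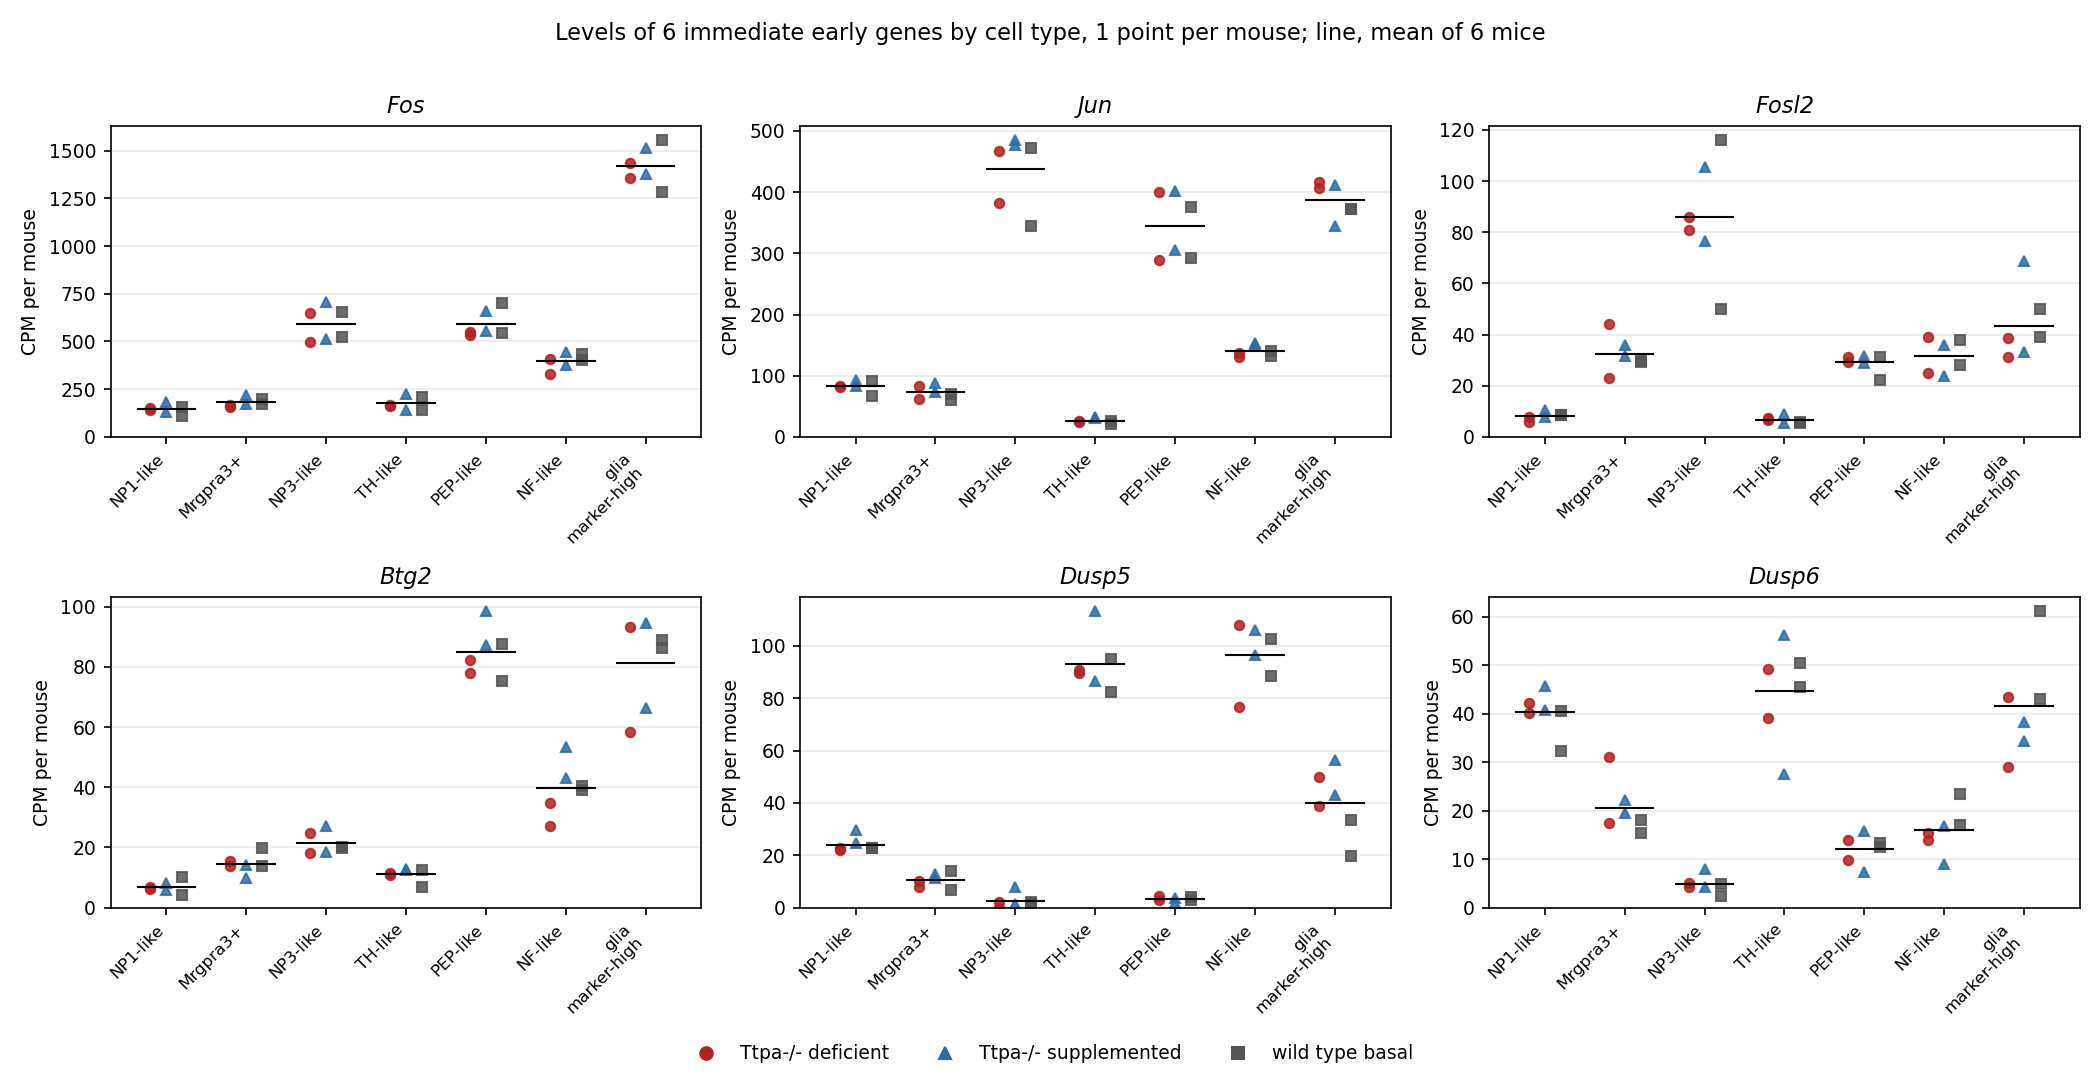
CPM (linear axis from 0) of 6 members in the neuron types and the marker-high cells, 1 point per mouse with colour and shape by group, and a line at the mean of the 6 mice. Among neuron types Fos and Jun are high in NP3-like and PEP-like and Btg2 in PEP-like points, while Dusp5 is high in TH-like and NF-like neurons and under 10 CPM in every NP3-like and PEP-like point.

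Other transcription factors of the list split in the same way, with exceptions by gene. Egr1 had 149, 187 and 209 CPM in PEP-like and 151, 172 and 220 CPM in NP3-like neurons, against 18.8, 31.4 and 37.7 CPM in NP1-like neurons. Klf6, a zinc finger factor linked to axon growth, peaked in PEP-like neurons (137, 164 and 187 CPM) and was lowest in NP1-like neurons (12.5, 16.1 and 17.0 CPM). Its log2 fold in PEP-like neurons was 2.04 ± 0.06 (edgeR adjusted p = 3.68e-45), and the PEP-like mice lay above all NP3-like mice (61.2, 71.6 and 99.3 CPM). Klf10, a factor induced by TGF-beta, peaked instead in NP3-like neurons (39.6, 44.7 and 54.2 CPM) and was slightly lower in PEP-like neurons (17.0, 21.4 and 27.9 CPM). That lower call had a log2 fold of -0.25 ± 0.099 (edgeR adjusted p = 0.0243) and was lost without mouse 654, 657 or 699 (-0.15 and adjusted p = 0.225 without 699), with limma-voom and without the mouse block. Myc, a growth regulator, had 22.1, 32.9 and 42.8 CPM in PEP-like neurons, against 0, 2.03 and 5.57 CPM in Mrgpra3+ neurons (log2 fold there -2.68 ± 0.35, edgeR adjusted p = 7.59e-10; among cells of 2000 to 4000 UMIs -2.23, adjusted p = 0.195). The remaining Klf genes were scarcer. Klf2, a factor of quiescent cells, had 10.8, 18.7 and 23.1 CPM in NP3-like neurons and was 1 of the 4 members called higher in TH-like neurons (4.51, 9.70 and 18.0 CPM; log2 fold 1.05 ± 0.21, edgeR adjusted p = 7.03e-06). Klf4, a related factor, was highest in PEP-like neurons (14.8, 17.0 and 19.4 CPM), above every NP1-like mouse (1.67, 4.61 and 6.07 CPM).

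The orphan nuclear receptor genes of the Nr4a family bind DNA without a ligand. Nr4a2 was highest in NF-like neurons, with 12.8, 17.7 and 24.1 CPM, and the range in PEP-like neurons (9.31, 13.0 and 17.1 CPM) overlapped it. NP1-like neurons had 0, 1.95 and 2.65 CPM of Nr4a2 (log2 fold -2.28 ± 0.29, edgeR adjusted p = 5.66e-11), below every NF-like mouse. Nr4a1 had 7.45, 12.4 and 19.8 CPM in NP3-like neurons, against 1.25, 2.90 and 3.65 CPM in NP1-like neurons. Nr4a3 had 2.51, 3.73 and 6.24 CPM in NF-like neurons, overlapping PEP-like neurons (2.04, 4.10 and 5.52 CPM).

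Of the Ier genes, Ier2, a nuclear protein gene, had 58.0, 70.8 and 82.3 CPM in NP3-like neurons and 8.81, 10.6 and 13.4 CPM in NF-like neurons (log2 fold in NF-like -1.43 ± 0.13). Among cells of 2000 to 4000 UMIs that fold was -0.43 (edgeR adjusted p = 0.387). Ier3, which encodes a survival factor, had 47.7, 54.8 and 66.8 CPM in NP1-like neurons. It was called higher there, with a log2 fold of 0.99 ± 0.085 (edgeR adjusted p = 1.2e-17), as were Dusp5 and Dusp6. The NP1-like call of Ier3 was lost among cells of 2000 to 4000 UMIs (0.47, edgeR adjusted p = 0.331). The ranges of Ier3 in PEP-like (50.3, 54.0 and 60.0 CPM) and NP3-like neurons (26.9, 47.8 and 67.0 CPM) overlapped those of NP1-like neurons. Btg2, an antiproliferative gene (chromosome 1, 134075170 to 134079120, minus strand), had 75.3, 84.8 and 98.7 CPM in PEP-like neurons, 27.2, 39.8 and 53.3 CPM in NF-like neurons and 4.18, 6.54 and 10.1 CPM in NP1-like neurons. Every PEP-like mouse was above every mouse of the other neuron types (log2 fold 2.3 ± 0.075, edgeR adjusted p = 1.54e-42). Its relative Btg1 was higher instead in NP3-like neurons, with 176, 247 and 357 CPM, against 43.7, 62.8 and 71.9 CPM in TH-like neurons.

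The growth arrest and DNA damage genes Gadd45b and Gadd45g also parted. Gadd45b had 60.8, 67.0 and 94.3 CPM in NP3-like neurons, and the highest mouse of any other neuron type had 15.3 CPM. Its log2 fold in NP3-like neurons was 3.23 ± 0.13 (edgeR adjusted p = 2.81e-36), and it was called lower in PEP-like neurons (-0.36, adjusted p = 0.0424). The PEP-like call was lost without cells that held a satellite glia marker UMI (-0.25, edgeR adjusted p = 0.227) and among cells of 2000 to 4000 UMIs (-0.72, 0.0894). It was also lost with DESeq2, limma-voom, no mouse block and a stricter marker gate, and without mouse 654, 657, 671 or 699. Gadd45g was high in both types, with 345, 396 and 505 CPM in NP3-like neurons and 248, 343 and 432 CPM in PEP-like neurons, against 29.7, 49.2 and 57.3 CPM in TH-like neurons. Zfp36, which binds AU-rich messenger RNAs and leads to their decay, had 16.0, 32.6 and 40.1 CPM in PEP-like neurons and 4.60, 7.64 and 8.39 CPM in NP1-like neurons.

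The phosphatase genes did not share 1 order. Dusp1 was high with Fos, at 154, 181 and 219 CPM in PEP-like and 132, 177 and 209 CPM in NP3-like neurons, against 28.0, 34.8 and 46.5 CPM in NP1-like neurons. Dusp5, whose product holds and inactivates ERK in the nucleus (chromosome 19, 53529109 to 53542431), was instead lowest in those types. It had 82.4, 90.3 and 113 CPM in TH-like and 76.7, 99.4 and 108 CPM in NF-like neurons, 22.1, 22.7 and 29.5 CPM in NP1-like neurons, and only 1.84, 3.31 and 4.48 CPM in PEP-like and 0, 1.76 and 8.02 CPM in NP3-like neurons. TH-like and NF-like ranges overlapped, and so did PEP-like and NP3-like ranges, with no overlap between the pairs. The log2 fold of Dusp5 was 3.02 ± 0.083 in TH-like (edgeR adjusted p = 1.21e-47), 2.88 in NF-like (3.18e-46), -2.83 ± 0.19 in PEP-like (1.82e-22) and -3.22 ± 0.24 in NP3-like neurons (3.14e-20). Dusp5 was also called lower in Mrgpra3+ neurons (-0.70) and higher in marker-high cells (1.07). The Mrgpra3+ call was lost among cells of 2000 to 4000 UMIs (-0.55, edgeR adjusted p = 0.786). It was also lost without cells that held a satellite glia marker UMI (-0.50, edgeR adjusted p = 0.157) and without mouse 671 (-0.54). Dusp6, a cytoplasmic ERK phosphatase (chromosome 10, 99263231 to 99267489), was highest in TH-like (27.5, 47.4 and 56.4 CPM) and NP1-like neurons (32.4, 40.7 and 45.8 CPM). NP3-like neurons had 2.34, 4.59 and 8.02 CPM of Dusp6 (log2 fold -2.31 ± 0.21, edgeR adjusted p = 1.97e-16), and PEP-like neurons 7.38, 12.9 and 15.9 CPM. Dusp5 and Dusp6 were thus the members lower in both types in which most of the list was higher. Dusp5, Zfp36 and Zfp36l1 are overlapped by a gene on the other strand and Dusp1 by genes on either strand, so reads of these members cannot be told apart from those of the overlapping genes.

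A pattern seen in these data was then counted over all genes as a description. For 13 of 29 members (Fos, Fosb, Jun, Junb, Jund, Egr1, Atf3, Zfp36, Klf6, Btg1, Dusp1, Gadd45g and Myc), NP3-like and PEP-like neurons were both above NP1-like, Mrgpra3+ and TH-like neurons in every mouse, against 5.47% of 10994 genes. The types differ in depth, since the median cell had 7251.5 UMIs in NP1-like, 7103 in Mrgpra3+, 4912 in NF-like, 4007 in TH-like, 3398 in NP3-like and 2389 in PEP-like neurons. On UMIs per cell in place of CPM the order held for 6 members (Fos, Fosb, Jun, Egr1, Atf3 and Klf6), against 0.555% of genes. On that scale Fos had a mean of 2.33 UMIs per cell in NF-like, 2.19 in NP3-like, 1.88 in PEP-like, 1.33 in Mrgpra3+, 1.19 in NP1-like and 0.778 in TH-like neurons, so NF-like neurons led. Of the 8 members highest in PEP-like neurons by CPM, only Klf6 and Btg2 stayed highest there per cell. Egr1, Zfp36 and Dusp1 were then highest in NF-like, Myc in NP1-like and Klf4 in Mrgpra3+ neurons. NP3-like neurons were highest for 15 members by CPM and for 13 per cell. All members together gave 15.0 UMIs per cell in NP3-like and 11.2 in PEP-like neurons, against 10.6 in NP1-like, 11.2 in Mrgpra3+, 10.5 in NF-like and 6.0 in TH-like neurons. Among cells of 2000 to 4000 UMIs alone, 23 members and 5819 genes could be tested. NP3-like neurons had 16 members higher and 2 lower (all genes 29.5% and 20.5%), with a median log2 fold of 1.02, and PEP-like neurons 16 and 3 (31.1% and 13.5%), with 0.80. TH-like neurons had 2 and 11 (32.2% and 20.9%; median -0.69), NF-like neurons 7 and 4 (37.9% and 28.3%; 0.21) and marker-high cells 17 and 0 (13.9% and 1.99%; 0.99). NP1-like neurons had 1 and 7 (15.6% and 11.7%; median -0.31) and Mrgpra3+ neurons 0 and 1 (5.4% and 5.57%; -0.80), with as few as 8 and 2 cells a mouse. Of the 138 calls of the full data that could be refitted, 86 were kept, and 6 values turned direction, none with a call. There the log2 fold of Fos was 0.78 in PEP-like and 0.71 in NP3-like neurons, that of Jun was -2.37 in TH-like neurons, and that of Dusp5 was 3.15 in TH-like and -2.53 in NP3-like neurons. In sums of UMIs, fewer molecules per cell and fewer cells with the gene cannot be told apart, and subtypes inside a gate were not separated.

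The marker-high cells held the list at its highest summed level, a mean of 5367.8 CPM over the mice, against 4095.5 in NP3-like and 3566.5 in PEP-like neurons. Of 29 members, 24 were higher and 0 lower (all genes 22.7% and 15.7%), with a median log2 fold of 1.25 against 0.08 for all genes. Zfp36 had 94.7, 105 and 131 CPM there (log2 fold 2.73 ± 0.19, edgeR adjusted p = 2.3e-21). Cyr61, a secreted matrix protein gene, had 67.9, 83.4 and 118 CPM (log2 fold 3.65 ± 0.22), and Zfp36l1, the relative of Zfp36, had 55.7, 88.8 and 118 CPM (log2 fold 3.30 ± 0.25). The highest neuron type of Cyr61 was NP3-like, at 8.52, 16.8 and 21.1 CPM, so no mouse overlapped. Ier2 and Egr1 were at 87.3, 127 and 163 CPM and 252, 395 and 435 CPM (log2 folds 2.22 ± 0.17 and 2.11 ± 0.11). Fos was at 1281, 1406 and 1557 CPM in marker-high cells, above every mouse of every neuron type. These cells also carried Gal, a neuropeptide gene raised after axon injury, at a log2 fold of 4.96 ± 0.19. Gal also led the genes of PEP-like neurons, at 484 CPM against 17.5 CPM in the other cells. The mixed RNA of marker-high cells touches each of their values, and its part in Gal was not tested. With cells that held any satellite glia marker UMI left out, 129 calls were made in the 6 neuron types (28 members and 10073 genes tested). NP3-like neurons then had 23 members higher and 2 lower (all genes 27.9% and 25.3%), and PEP-like neurons 23 and 3 (37.9% and 25.9%). NP1-like neurons had 3 and 19 (32.8% and 33.2%), Mrgpra3+ neurons 2 and 12 (21.2% and 16.2%), TH-like neurons 4 and 17 (35.5% and 29.4%), and NF-like neurons 12 and 9 (41.6% and 36.8%). The medians were -1.13 in NP1-like and -0.50 in Mrgpra3+ neurons.

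Related lists were read beside the 32 genes. Of 37 tested genes in a list of other early response genes, 22 were higher and 7 lower in NP3-like neurons (median log2 fold 0.48). PEP-like neurons had 25 and 6 (0.78), NF-like neurons 18 and 12 (0.25), and Mrgpra3+ neurons 10 and 15 (-0.32). NP1-like neurons had 4 and 22 (-0.55) and TH-like neurons 5 and 20 (-0.49). Calls in either direction took 56.6% of all genes in NP3-like, 67.0% in PEP-like, 78.5% in NF-like, 43.9% in Mrgpra3+, 66.6% in NP1-like and 66.5% in TH-like neurons. The shares of all genes by direction are given above with the counts of members. Heat shock chaperones (15 genes) were balanced, with 6 higher and 6 lower in NP3-like and 5 higher and 7 lower in PEP-like neurons, although Hspa1b and Hspa1a, the inducible Hsp70 genes, had log2 folds of 2.28 and 1.79 in NP3-like neurons. Axon injury genes were mainly higher in PEP-like neurons (9 of 11 tested, 1 lower) and lower in TH-like neurons (10 of 11, none higher). Gal (log2 fold 7.44) and Gap43 (3.89) led in PEP-like neurons, and Gal is also a known marker of part of that type. A list of 15 genes for factors that start early gene transcription held CREB, SRF, Elk and Mef2 genes, among others. It had 6 higher and 3 lower in PEP-like and 1 higher and 5 lower in NP3-like neurons. The median log2 folds were 0.11 and -0.07, close to those of all genes (0.07 and -0.03). Mef2c had a log2 fold of 2.50 in NF-like and -3.67 in NP3-like neurons.

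Between the groups of mice no member passed the test in neurons. In edgeR's quasi-likelihood test over 13353 genes with Benjamini-Hochberg adjustment, 31 members were tested, and 0 members and 0 genes (0.0% of genes) were called in each of the 3 comparisons. DESeq2 called 1 gene in deficient against wild type, 14 in supplemented against wild type and 1 in deficient against supplemented mice, none of them a member, and limma-voom called 0. At an unadjusted p under 0.05 there were 2 members in deficient against wild type (3.99% of all genes), 4 in supplemented against wild type (3.88%) and 3 in deficient against supplemented mice (2.4%). The median log2 fold of the 31 members was -0.07 (12 above 0, 19 below) in deficient against wild type, 0.02 (17 and 14) in supplemented against wild type and -0.13 (5 and 26) in deficient against supplemented mice. With 2 mice a group, precision was set by a biological coefficient of variation of 12.3%.

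**Figure D3:**
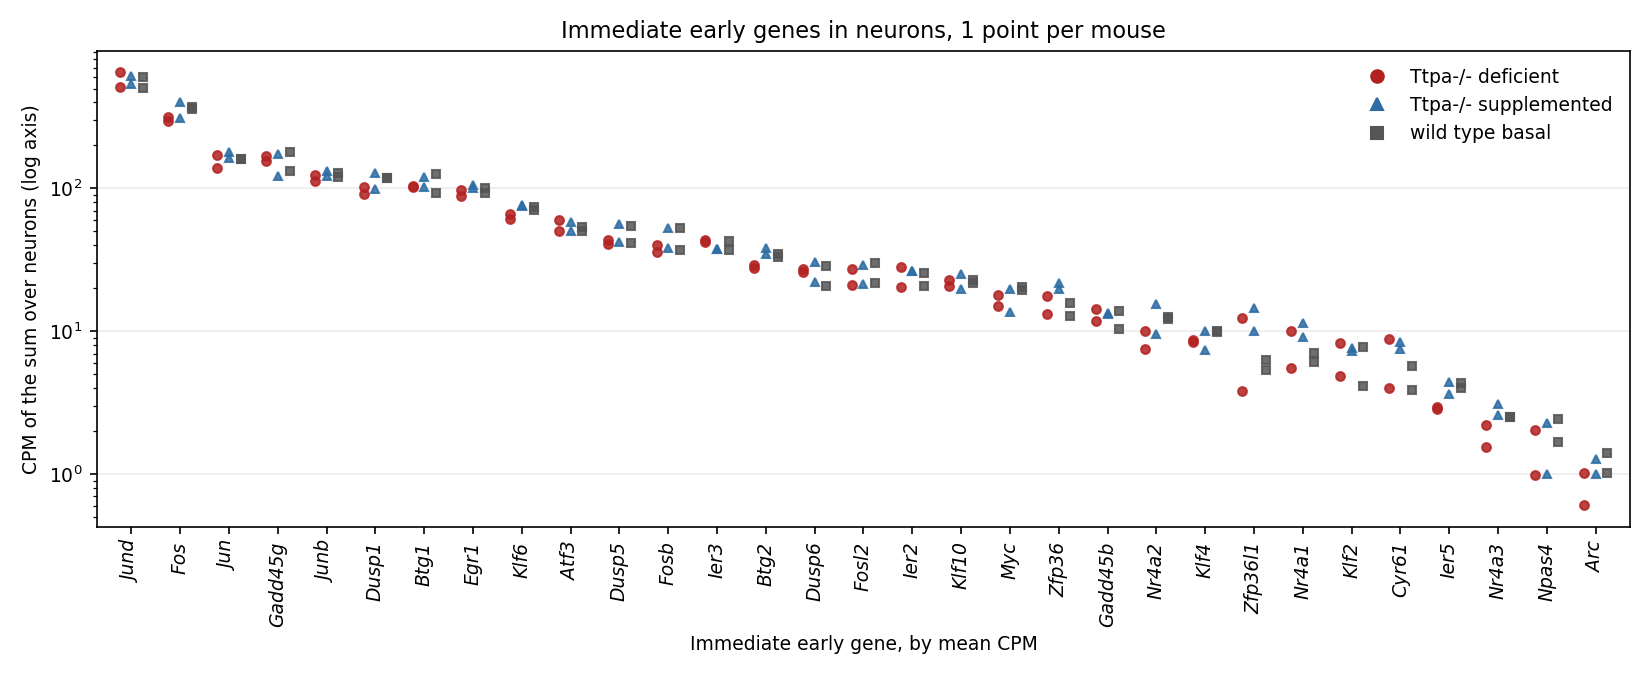
CPM of the sum over neurons (log axis) for 31 members ordered by mean, 1 point per mouse, with deficient, supplemented and wild type mice from left to right within each gene. The 6 points of a gene lie close together compared with the distance between genes, as for Fos (297 to 401 CPM) against Egr1 (88.8 to 105 CPM).

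In deficient against wild type mice the 5 members with the smallest p were Ier5, Nr4a2, Dusp1, Btg2 and Fos, and none passed. Ier5, a regulator of heat shock factor, had 2.88 and 2.97 CPM in deficient mice and 4.02 and 4.35 CPM in wild type mice (log2 fold -0.51 ± 0.23, edgeR adjusted p = 0.989, unadjusted p = 0.0447). Nr4a2 had 10.1 and 7.48 CPM in deficient mice and 12.6 and 12.1 CPM in wild type mice (-0.50 ± 0.23, edgeR adjusted p = 0.989). Both deficient mice were under both wild type mice for these genes. The log2 folds of Dusp1, Btg2 and Fos were -0.29 ± 0.14, -0.26 ± 0.13 and -0.25 ± 0.15, with the same edgeR adjusted p of 0.989. In all, 9 of 31 members had both deficient mice below both wild type mice and 0 had both above, where 15.1% of all genes were apart downward and 16.3% upward. The summed level of the 5 NP1-like markers in neurons differed between these groups too, at 248 and 175 CPM in deficient, 229 and 170 CPM in supplemented, and 145 and 101 CPM in wild type mice, and NP1-like is the neuron type in which Fos, Btg2, Dusp1, Klf6 and Nr4a2 were lowest. The gate held 454 and 297 NP1-like cells in deficient, 386 and 334 in supplemented, and 257 and 204 in wild type mice. Within PEP-like neurons alone the log2 folds in deficient against wild type mice were -0.24 ± 0.17 for Fos, -0.23 ± 0.16 for Dusp1 and -0.07 ± 0.15 for Btg2, none of which passed the edgeR test. The part of the share of NP1-like cells in the values of all neurons was not tested.

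Deficient against supplemented mice gave Btg2, Zfp36, Nr4a2, Nr4a3 and Klf6 as the members with the smallest p. Btg2 had 27.8 and 28.9 CPM in deficient mice and 35.0 and 38.6 CPM in supplemented mice, with no overlap (log2 fold -0.35 ± 0.13, edgeR adjusted p = 0.999). Klf6 had 61.5 and 66.0 CPM in deficient mice and 75.8 and 76.2 CPM in supplemented mice (-0.22 ± 0.12, edgeR adjusted p = 0.999). Zfp36 had 17.7 and 13.1 CPM in deficient mice and 22.0 and 19.9 CPM in supplemented mice (-0.42 ± 0.17). Nr4a3 had 2.20 and 1.54 CPM in deficient mice and 2.60 and 3.11 CPM in supplemented mice (-0.61 ± 0.29), and Nr4a2 gave -0.52 ± 0.23, with overlap of the mice. Of the 31 members, 6 had both deficient mice below both supplemented mice and 1 (Ier3) had both above, where 20.2% and 13.2% of all genes were so placed.

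Supplemented against wild type mice gave Zfp36, Zfp36l1, Nr4a1, Cyr61 and Myc. Zfp36 had 22.0 and 19.9 CPM in supplemented mice and 15.8 and 12.9 CPM in wild type mice (log2 fold 0.52 ± 0.17, edgeR adjusted p = 0.965, unadjusted p = 0.0118). Zfp36l1 had 14.5 and 10.1 CPM in supplemented mice and 6.30 and 5.38 CPM in wild type mice (1.04 ± 0.39). Without the filter on low counts, Zfp36l1 was called (log2 fold 1.03, edgeR adjusted p = 0.000136), so the absence of a call depends on that filter. Zfp36, Zfp36l1, Nr4a1 and Cyr61 each had both supplemented mice above both wild type mice, and each was also called higher in marker-high cells, with log2 folds from 2.73 to 3.65. Nr4a1 had 11.5 and 9.08 CPM in supplemented mice and 6.06 and 7.07 CPM in wild type mice (0.61 ± 0.25). Cyr61 had 8.46 and 7.56 CPM in supplemented mice and 5.76 and 3.86 CPM in wild type mice (0.71 ± 0.32). Myc had 13.7 and 19.8 CPM in supplemented mice and 20.3 and 19.6 CPM in wild type mice (-0.28 ± 0.18). In total 10 of 31 members had both supplemented mice above both wild type mice and 0 had both below, where 18.1% and 10.6% of all genes were so placed.

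The summed level of the 6 satellite glia markers in neurons was also highest in the supplemented mice. It was 305 and 226 CPM in deficient mice, 416 and 516 CPM in supplemented mice, and 284 and 210 CPM in wild type mice. Between the supplemented mice it was higher in mouse 671, while Zfp36, Zfp36l1, Nr4a1 and Cyr61 were each higher in mouse 670. The part of glial RNA in these values was not tested. In neurons with no UMI of these markers, supplemented against wild type mice gave log2 folds of 1.46 ± 0.52 for Zfp36l1, 0.43 ± 0.17 for Zfp36, 0.43 ± 0.30 for Nr4a1 and 0.52 ± 0.44 for Cyr61, all at an edgeR adjusted p of 0.999. Depth also ran with some members. Zfp36l1 and Jun had levels in exactly the reverse order of the median depth of the 6 mice, as did 0.367% of all genes, and the part of depth in these values was not tested.

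**Figure D4:**
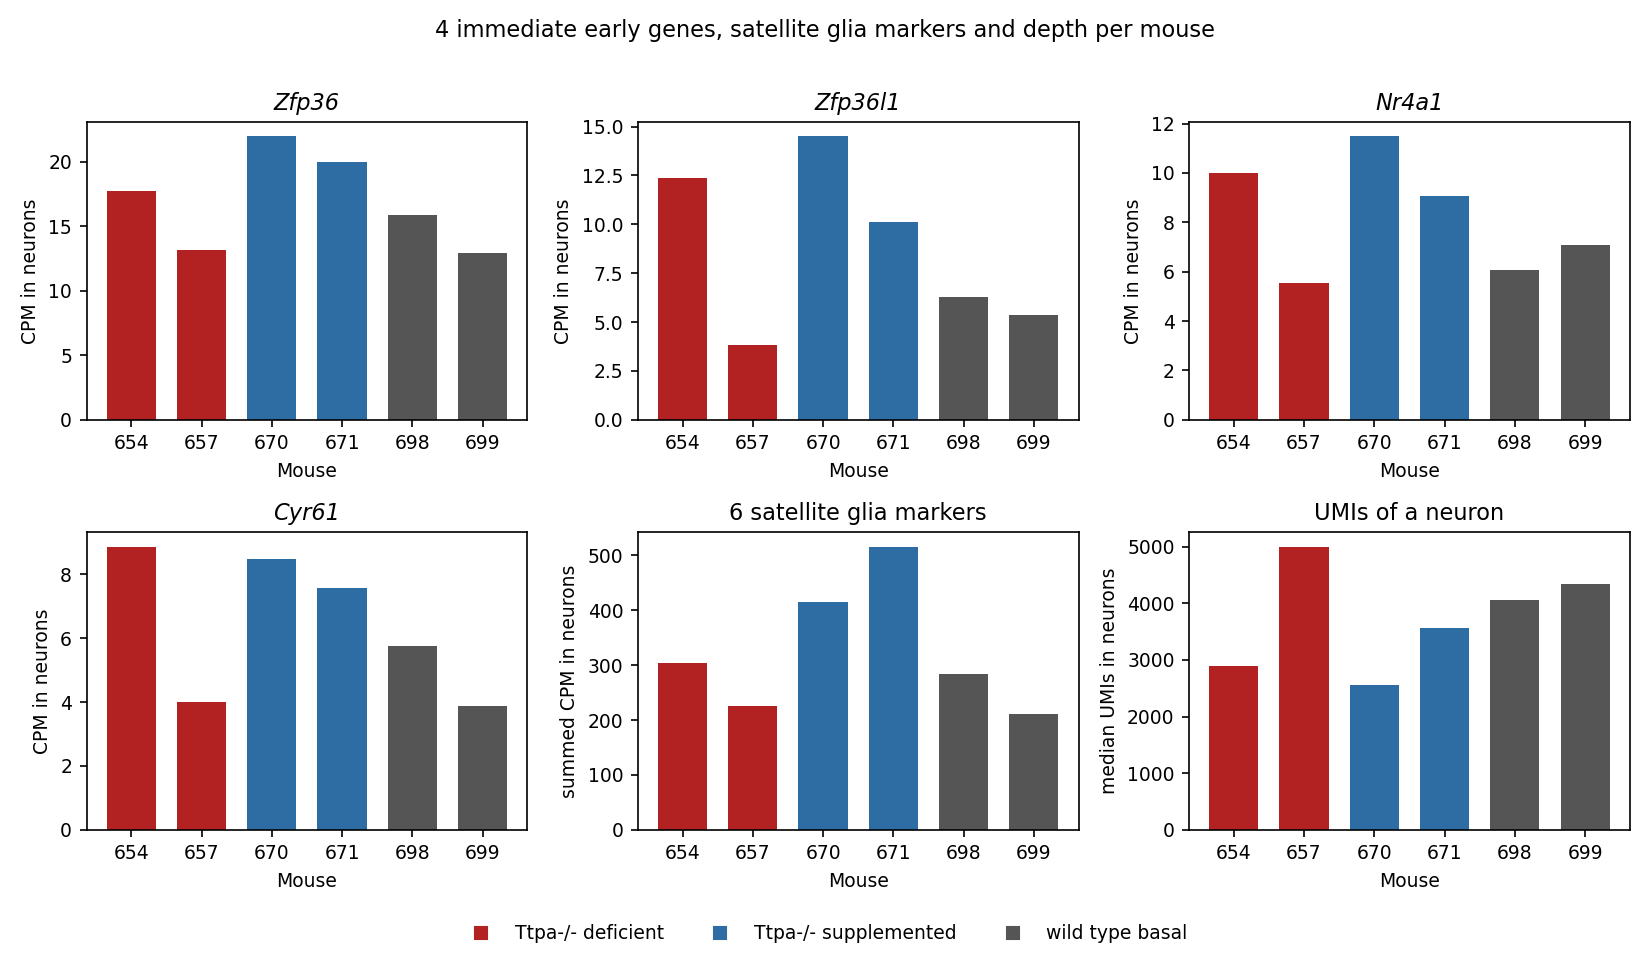
Bars per mouse, from 0, of the CPM in neurons of Zfp36, Zfp36l1, Nr4a1 and Cyr61, the summed CPM of 6 satellite glia markers and the median UMIs of a neuron, coloured by group. Supplemented mice have the highest marker sums (416 and 516 CPM), and Zfp36l1 is highest in the shallowest mouse (670, 2562 UMIs) and lowest in the deepest (657, 5003 UMIs).

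Within the gated types, 168 tests of a member were made in each comparison and 0 were called, with 8, 15 and 11 at an unadjusted p under 0.05 in deficient against wild type, supplemented against wild type and deficient against supplemented mice. Over the 7 classes, the same fits called 27 genes in deficient against wild type (0.0463% of gene tests; 3.05% at an unadjusted p under 0.05), 39 in supplemented against wild type (0.0669%; 4.18%) and 3 in deficient against supplemented mice (0.00515%; 3.35%). DESeq2 called 9, 22 and 0 genes in these comparisons. Egr1 in NP1-like neurons came closest. It had 30.3 and 34.7 CPM in deficient mice, 37.7 and 32.6 CPM in supplemented mice, and 18.8 and 19.2 CPM in wild type mice, so all 4 Ttpa-/- mice lay above both wild type mice. The log2 fold was 0.86 ± 0.21 in supplemented against wild type (edgeR adjusted p = 0.0819) and 0.75 ± 0.21 in deficient against wild type mice (edgeR adjusted p = 0.373). Zfp36l1 in supplemented against wild type mice gave 1.36 ± 0.48 in NP1-like and 1.32 ± 0.49 in PEP-like neurons, and Zfp36 gave 1.13 ± 0.33 in NP3-like neurons, at edgeR adjusted p of 0.530, 0.866 and 0.843. None of the related lists had a called gene in neurons in any comparison. The medians of the other early response genes were -0.01 in deficient against wild type, 0.02 in supplemented against wild type and -0.07 in deficient against supplemented mice (40 tested), and those of the heat shock chaperones were -0.09, -0.02 and -0.06. Over these lists the smallest p belonged to Hspa1b in deficient against supplemented mice (log2 fold -0.53 ± 0.17), to the axon injury gene Sdc1 in deficient against wild type mice (0.85 ± 0.22) and to Gal in supplemented against wild type mice (-0.51 ± 0.11, edgeR adjusted p = 0.531). Among the other early response genes, Rhob had -0.37 ± 0.13 in deficient against wild type and Id3 0.51 ± 0.13 in supplemented against wild type mice, and none of these passed the test.

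Within neurons the list was also read cell by cell, as a description with no test. Each gated neuron with at least 2000 UMIs was thinned to 2000 UMIs, which left out 2675 shallower cells. By mouse these were 806 and 10 in deficient mice, 949 and 477 in supplemented mice, and 340 and 93 in wild type mice. By type they were 1928 PEP-like, 263 NF-like, 246 TH-like, 196 NP3-like, 31 NP1-like and 11 Mrgpra3+ cells. Mice 654 and 670 kept 413 and 366 PEP-like cells and lost 552 and 633. The PEP-like shares therefore describe the deeper cells of that type. Of 13518 cells, 1289 then had 3 or more Fos UMIs (Fos-high cells) and 7307 had none. The share of Fos-high cells averaged 16.5% in PEP-like neurons (8.96% to 23.9% over mice) and 15.2% in NP3-like neurons (8.75% to 20.4%). It was 9.10% in NF-like (6.69% to 10.8%), 3.35% in Mrgpra3+ (1.43% to 6.90%), 2.25% in TH-like (1.45% to 3.60%) and 1.85% in NP1-like neurons (0.450% to 3.33%). By mouse it was 5.11% and 10.1% in deficient mice, 5.79% and 11.1% in supplemented mice, and 12.3% and 11.2% in wild type mice, lowest in the mice with the most cells left out. Between 28.9% and 51.0% of a mouse's thinned Fos UMIs lay in Fos-high cells.

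Fos-high cells were set against Fos-zero cells of the same type and mouse. Of 22 members with enough UMIs, 21 had a mean at least 1.25 times as high in Fos-high cells, against 16.8% of 8547 genes, and 17 were above 1 in every mouse. The share of all genes above 1 in every mouse is not given here. The ratio was 2.98 for Zfp36 (1.78 to 4.71 over mice), 2.78 for Fosb (2.43 to 4.46), 2.64 for Egr1 (1.72 to 3.39) and 2.05 for Ier2 (1.75 to 2.3). Genes high with Fos by type differed in their ratio by cell. Jun had 1.86 (1.43 to 2.59), a ratio reached by 0.959% of all genes. Jund had 1.35 (1.28 to 1.53) and Gadd45g 1.35, reached by 9.45% and 9.52% of all genes. Klf10 had the lowest ratio, as the 1 member under 1.25. Of the members, 5 were among the 40 genes with the highest ratio, and the satellite glia markers Apoe (3.39) and Fabp7 (3.30) stood there too. Without cells that held a satellite glia marker UMI, 781 Fos-high and 5278 Fos-zero cells remained. Of 19 members, 18 were then at 1.25 or more, against 14.9% of 7211 genes, with Fosb at 2.61, Zfp36 at 2.48 and Egr1 at 2.28. Only 12 of the 19 were above 1 in every mouse, and 3 were among the 40 genes with the highest ratio. Nfkbia, an inhibitor of NF-kappa-B from the list of other early response genes, had 2.31 in those cells.

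**Figure D5:**
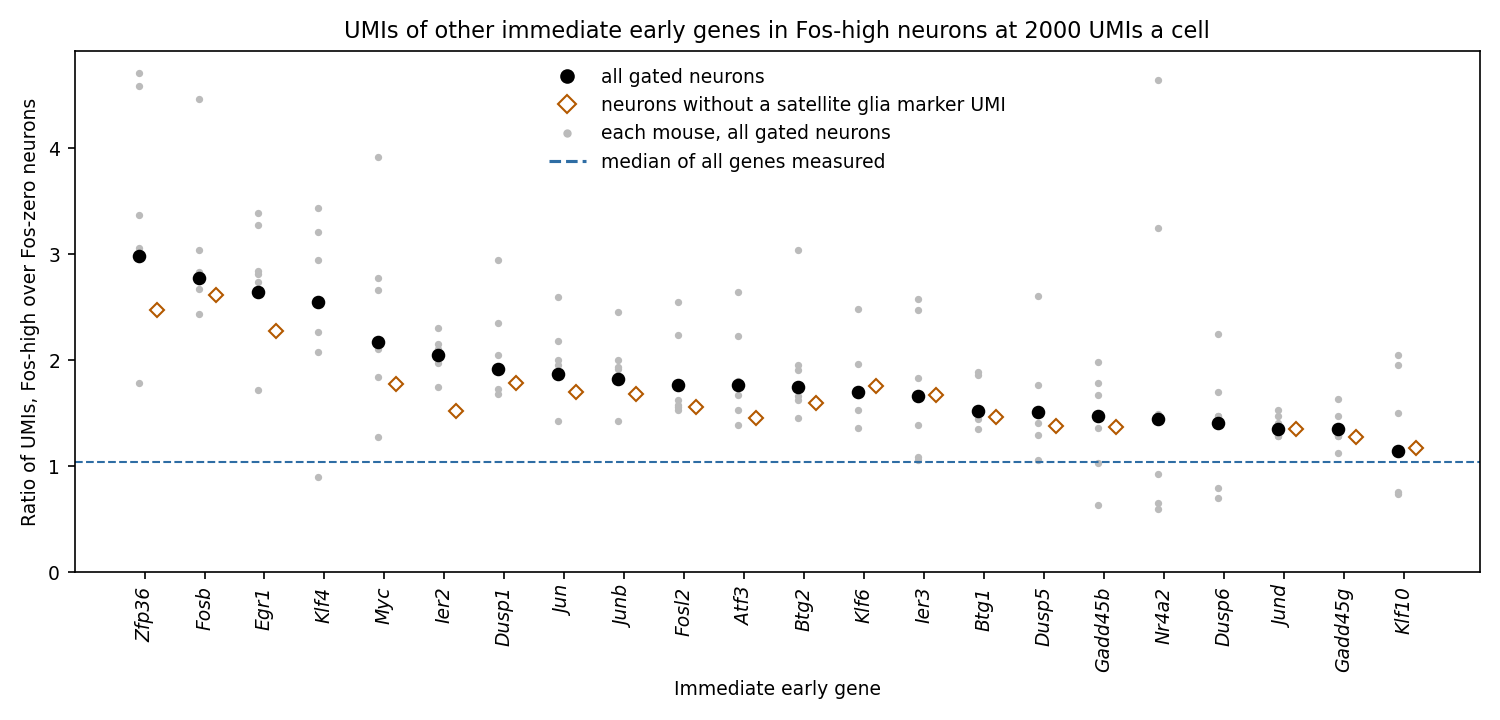
Ratio of UMIs in Fos-high over Fos-zero neurons at 2000 UMIs a cell for 22 members, standardised by type within mouse, as large points for all gated neurons, grey points for each mouse, open diamonds for neurons without a satellite glia marker UMI and a dashed line at the median of all genes. Zfp36, Fosb and Egr1 are at the top (2.98, 2.78 and 2.64) and Klf10 at the bottom, above that line at 1.04.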

How the data were processed

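The authors deposited raw UMI counts in 1 table of genes by cells. The tools named by the submitters' processing notes are Cell Ranger 2.0.1, bcl2fastq 2.17.1.14, Seurat 2.3.0 and limma 3.32.10, and the build is mm10. The choice of cells for the table and any use of strand in counting were not given in the sources used here. Libraries were made with a 3′ droplet kit, so a gene's level is not divided by its length. Replicates are separate mice by the labels, 2 a group.

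A cell needed 500 genes and no more than 20% mitochondrial UMIs, which removed 27. Scrublet (scanpy 1.11.5) marked 45 cells (0.208%) by its automatic threshold, so its scores were used at 0.8% expected doublets per 1000 cells, and 682 cells (3.15%) were removed. Cells with at least 0.5% of UMIs from satellite glia markers and 3 of 6 markers formed the marker-high class. Other cells with 4 or more pan-neuronal markers were neurons. A neuron took the type whose marker set had at least 3 UMIs of at least 2 markers (1 for Mrgpra3) and 1.5 times the UMIs of the next set. These type names were rebuilt here and are not the authors' annotation.

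The counts of each mouse were added up over neurons and over each type, and these sums were fitted to all 6 mice with edgeR 4.0.16 (R 4.3.3; TMM, filterByExpr, quasi-likelihood F test), with Benjamini-Hochberg adjustment over all genes tested and a threshold of 0.05. Group comparisons had 1 mean per group and no covariate. Comparisons between types had mouse as a block, since the sums of a mouse share its library. CPM were computed here from the sums. DESeq2 1.42.0, limma-voom (limma 3.58.1), no filter on low counts, thinned counts, cells of 2000 to 4000 UMIs, stricter gates, sex as a term, cells without glia markers and leaving out each mouse were the alternatives; cells of 2000 to 4000 UMIs, cells without glia markers and leaving out mice 654 and 670 were chosen after seeing the data. On simulated counts of the comparison of deficient with wild type neurons (13323 genes), 49 of 50 genes changed 2-fold and 16 of 50 changed 1.5-fold were recovered, with 10 false calls. On those of NP1-like against other types (10370 genes), 49 of 50 changed 1.5-fold were recovered. The changed genes were drawn only from genes above a minimum UMI sum, and every gene was given the same spread. Recovery of scarcer or more variable members was therefore not measured.

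The members and lists were chosen with earlier results of these data known. Genes were named by rule: the 8 members highest in neurons, the 5 of smallest p per group comparison where none passed, up to 3 per direction and type with the largest fold among called members of average log2 CPM of 4 or more, and up to 2 per direction of each other list. Other members, and other types of these, were named after their values were seen. Promoters came from RefSeq (GRCm38.p6) and gene positions from the GENCODE annotation of mm10.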

Additional observations from a re-analysis of the deposited data

How the results depend on the processing

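The 163 calls of members between types numbered 56 with every sum thinned to the smallest and 87 among cells of 2000 to 4000 UMIs. Both use fewer UMIs and tested fewer members: 65 of the 163 calls could be refitted after thinning and 55 were kept, and 138 among cells of 2000 to 4000 UMIs, with 86 kept. Thinning gave 0 higher and 6 lower in NP1-like, 1 and 5 in Mrgpra3+, 9 and 0 in NP3-like, 0 and 8 in TH-like, 10 and 0 in PEP-like and 4 and 3 in NF-like neurons, and 10 higher in marker-high cells. The shares of all genes called after thinning are not given here, so the balance of these counts cannot be read against them. Cells of 2000 to 4000 UMIs gave 1 and 7 in NP1-like (as few as 8 cells a mouse), 0 and 1 in Mrgpra3+ (as few as 2), 2 and 11 in TH-like, and 7 and 4 in NF-like neurons. There 6 called members turned direction, none with a call: Dusp5 (-0.29, adjusted p 0.778) and Zfp36 (0.55) in NP1-like, Zfp36l1 (-0.32), Cyr61 (-0.06) and Fosl2 (-0.09) in PEP-like, and Ier2 (0.20) in TH-like neurons. Thinning turned Dusp1 in Mrgpra3+ neurons (0.08). The cause was not tested. The lower calls in PEP-like neurons numbered 2, not 4, with limma-voom and with no replicate block.

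Leaving out each mouse gave 154 to 160 calls in all and 0 to 0 members in every group comparison, in neurons and in types. By type the higher and lower calls ranged over 3 to 3 and 18 to 20 in NP1-like, 2 to 2 and 14 to 17 in Mrgpra3+, 23 to 24 and 2 to 2 in NP3-like, 3 to 5 and 17 to 19 in TH-like, 23 to 24 and 2 to 4 in PEP-like, 9 to 12 and 9 to 11 in NF-like, and 22 to 24 and 0 to 0 in marker-high cells. The lower calls in PEP-like neurons were 2 without mouse 654, 657 or 699. Shares of all genes called with a mouse left out are not given here.

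With no filter on low counts, 1 member passed in neurons and 2 in the gated types in supplemented against wild type mice. The 1 in neurons was Zfp36l1 (log2 fold 1.03, adjusted p 0.000136). Thinning gave 1 in the gated types. The share of all genes called in these fits is not given here, so these counts of members cannot be set against it. Of 840 values of single members under alternatives, 824 kept direction and side of the threshold, 14 lost the call, 1 gained it and 1 reversed.

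Mice could not be paired by replicate number because the groups share none. With sex as a term (1 female and 1 male a group), 0 members were called in each group comparison, in neurons and in the gated types. Without mouse as a block, 157 of the 163 calls between types were kept. With 2 mice a group, 16 of 50 simulated 1.5-fold changes of genes above a minimum UMI sum were recovered in neurons. Smaller changes would mostly be missed, and recovery for scarcer members was not measured.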
